A study of Mus musculus with 6 samples.

Results

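The genes described here are 41 imprinted genes of the mouse, named by symbol, and their probes were all non-control probes of the array that carry one of those symbols. Probes were found for 39 of the 41, out of 34844 gene names on the array, and 38 were tested among 28917 genes. Transcripts were measured in the whole testis of male C57BL/6 mice at 5 months of age, 1 testis per one-colour Agilent array labelled with Cy3. The 3 AROM+ mice are transgenic for aromatase, which makes oestrogens from androgens and is over-expressed in them, and the 3 control mice are wild type (WT). The labels name neither the promoter nor the species of the transgene, give no treatment, and show no agent or deletion shared by both groups. The comparison asks which transcripts are higher or lower in AROM+ than in WT testes.

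An imprinted gene is expressed mainly from the copy inherited from 1 parent, because DNA methylation set in the egg or the sperm marks one copy at a nearby control region. Many imprinted genes lie in domains that share such a region, often with a long noncoding RNA on one parental copy and protein-coding genes on the other. In the male germ line the marks are erased before birth and rewritten in the paternal form, while the somatic cells of the testis (Leydig, Sertoli, peritubular, vascular and immune cells) keep the marks of both parents. Many of these genes act in growth of the foetus and placenta, and several are also transcribed in testis. An array reads the summed RNA of both copies in all cells of the tissue, so the parental origin of the transcripts was not measured. In such bulk samples, fewer cells of a type and less RNA per cell cannot be told apart.

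Meg3, a noncoding RNA of the Dlk1-Dio3 domain on chromosome 12, had the largest difference among the 38 genes and Mirg in the same domain went the other way, so probes that read these RNAs are shown. Each is 60 bases long and is printed 5′ to 3′ as the files give them, with the files' coordinates (NCBI37/mm9); no letters are capitalised. The 2 Mirg probes lie within 7.97 kb. The Dio3os probe is 1 of 2 with the same coordinates and similar letters, so they share a target.
Meg3 A_51_P455997, chr12:110809678-110809737, plus strand: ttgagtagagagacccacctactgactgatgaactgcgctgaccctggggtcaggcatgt
Meg3 A_52_P196568, chr12:110799558-110799617, plus strand: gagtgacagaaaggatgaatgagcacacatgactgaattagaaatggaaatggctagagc
Mirg A_66_P121059, chr12:110987569-110987628, plus strand: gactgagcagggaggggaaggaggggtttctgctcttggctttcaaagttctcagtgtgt
Mirg A_55_P2336173, chr12:110979653-110979712, plus strand: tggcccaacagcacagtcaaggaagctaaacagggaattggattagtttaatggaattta
Dio3os A_55_P1962861, chr12:111514921-111514980, minus strand: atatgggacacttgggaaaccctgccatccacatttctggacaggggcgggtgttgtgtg

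The imprinted genes did not move as a block. Of the 38 tested, 18 were called different between AROM+ and WT (limma, adjusted p under 0.05 over all genes), which is 47.4% of them against 45.9% of all genes tested. A share this near the background is not a result about the imprinted genes as a set. The 7 that rose were Igf2r, Impact, Meg3, Mest, Nap1l5, Peg3 and Sgce, or 18.4% against 14.6% of all genes. The 11 that fell were Asb4, Kcnq1, Magel2, Mcts2, Mirg, Peg12, Phlda2, Plagl1, Rasgrf1, Rtl1 and Ube3a, or 28.9% against 31.3% of all genes. Among gene names that are in the RefSeq table, the background was 19.4% higher and 30.2% lower. The other 20 were not called, and 23 of the 38 had an unadjusted limma p under 0.05. The median log2 difference, AROM+ minus WT, was −0.09 for the imprinted genes and −0.19 for all genes, and 21 of the 38 imprinted genes were below 0.

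The groups of 3 arrays did not overlap for 22 of the 38 genes, 57.9% against 59.0% of all genes, and for none of the 18 called genes did they overlap. Within AROM+, replicate 1 was the lowest array for 18 genes and replicate 3 the highest for 17. A called difference of at least 0.5 in size without overlap was found for 10 genes, where the background was 28.0%. Meg3 alone was called at 2-fold or more, where the background was 6.38%. The split of 7 higher and 11 lower depends on the scaling: with quantile normalization it was 9 higher and 5 lower. The lower count was also 6 without WT replicate 1, 6 without WT replicate 3 and 7 without AROM+ replicate 1. Calls over all genes moved too, from 4224 higher and 9054 lower to 4699 and 6185 with quantile normalization. The lower calls were 5406 of 29069 genes, 4951 of 28943 and 6413 of 29074 without those arrays, in the same order.

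**Figure D1:**
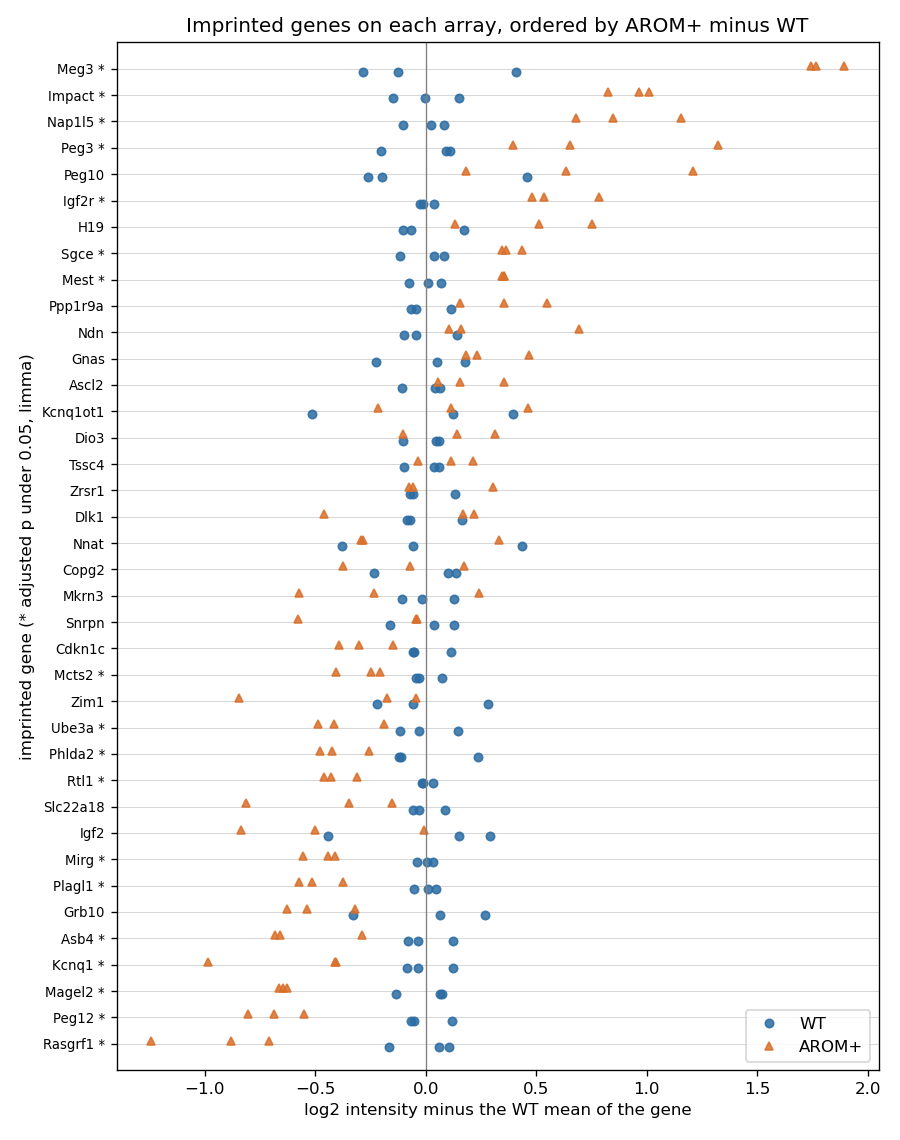
Log2 intensity of each of the 38 tested imprinted genes on each array, minus the mean of the 3 WT arrays, with genes ordered by their difference. Circles are WT arrays, triangles are AROM+ arrays, and a star marks an adjusted p under 0.05; Meg3 is the highest at 1.80 and Rasgrf1 the lowest at −0.95.

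Markers of macrophages, fibroblasts and blood vessels were mostly higher in AROM+ testes, and those of spermatids and meiotic cells mostly lower, where 14.6% of all genes were higher and 31.3% lower. Of 10 macrophage markers tested 8 rose and 2 fell (median log2 difference 1.93), and their summed level, in multiples of the array's 75th percentile, was 29.2 to 35.5 in WT and 49.6 to 74.2 in AROM+. Of 8 fibroblast and matrix markers 7 rose (median 1.28; summed 14.5 to 20.0 in WT and 28.0 to 39.7 in AROM+), and of 8 endothelial markers 6 rose and 1 fell (median 1.19; summed 3.74 to 4.46 and 4.37 to 5.28). Of 7 Leydig markers 4 rose (median 0.54; summed 18.9 to 35.0 and 33.7 to 47.7), of 10 Sertoli markers 2 rose (median 0.19; summed 39.3 to 45.6 and 38.8 to 53.0), and of 6 peritubular markers 1 rose (median 0.31; summed 10.4 to 12.8 and 12.95 to 15.6). In the germ cells, 7 of 10 spermatid markers fell (median −0.45; summed 206.7 to 279.4 in WT and 172.8 to 182.3 in AROM+), as did 5 of 8 meiotic markers (median −0.34; summed 35.0 to 36.1 and 27.0 to 27.4). All markers tested were well above background on every array of at least 1 group, and 4 of 8 epididymis markers were too dim to test, while 2 of the other 4 fell (summed 1.13 to 1.32 and 0.88 to 0.96). The part of these shifts in the values of the imprinted genes was not tested. The mouse aromatase gene Cyp19a1 differed by −0.30 ± 0.18 (SE, adjusted p = 0.219), and its probe may not detect the transgene, so it does not check the labels. The WT arrays fill one row of the slide and the AROM+ arrays fill the other, and effects of the row and of the transgene cannot be told apart.

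In the Dlk1-Dio3 domain the noncoding RNA Meg3 was higher in AROM+ testes while Mirg and Rtl1 were lower. The paternal copy of this domain expresses Dlk1, Rtl1 and Dio3, and the maternal copy expresses the long noncoding RNAs Meg3, Rian and Mirg. On its brightest probe Meg3, which is known as a growth-suppressing transcript, read −3.26, −3.96 and −3.80 on the WT arrays and −1.78, −1.93 and −1.91 on the AROM+ arrays (log2 intensity minus the 75th percentile of the array, the scale of every array value below). Each AROM+ array was above each WT array. The log2 difference was 1.80 ± 0.18 (SE), or 3.48-fold, with an adjusted p of 0.00302. The second probe printed for Meg3 gave 0.81 ± 0.32, which was not called (adjusted p over probes 0.0784), though its groups did not overlap either.

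Mirg, the host transcript of a large microRNA cluster farther along the same strand, went the other way. Its brightest probe read 1.41, 1.48 and 1.46 in WT and 1.01, 1.04 and 0.89 in AROM+, with no overlap. The log2 difference was −0.47 ± 0.09 (adjusted p = 0.00784) there and −0.42 ± 0.11 on its other probe (adjusted p over probes 0.0245). Rtl1, a retrotransposon-derived gene transcribed from the opposite strand and from the paternal copy, read 3.58 to 3.63 in WT and 3.14 to 3.29 in AROM+. It fell by 0.40 ± 0.09 (adjusted p = 0.0117), but by 0.18 with quantile normalization, where it was not called, nor was it with spike-in scaling (−0.46). No probe on the array lists Rian by name or by its RefSeq transcript.

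Dlk1, a transmembrane relative of the Notch ligands, was not called. Its brighter probe (chr12:110698721-110698781) read −3.41, −3.16 and −3.40 in WT and −3.78, −3.16 and −3.11 in AROM+. The groups overlapped, with a difference of −0.03 ± 0.20 (adjusted p = 0.923). AROM+ replicate 1 was the lowest of the 6 arrays, and without it the difference was 0.19. Dio3, the enzyme that inactivates thyroid hormone, differed by 0.12 ± 0.13 (adjusted p = 0.472). Its antisense noncoding partner Dio3os, which is not among the 41 genes, rose: the probe printed above read −4.87, −4.36 and −4.69 in WT and −3.21, −3.32 and −3.48 in AROM+. The difference was 1.30 ± 0.15 (adjusted p over probes 0.00378), and 1.09 ± 0.14 on the second probe.

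The array also holds 110 probes of other names, mostly intergenic transcripts, between the first Dlk1 probe and the last Dio3 probe (chr12:110698502-111518851, NCBI37/mm9, 820 kb). Of the 67 that were above background, 3 were higher (4.48%, against 14.1% of all probes tested) and 26 were lower (38.8%, against 30.3%). The median was −0.28. Both Dio3os probes are among the 3 higher ones. Of 16 such probes between the 2 Mirg probes, 10 were lower and 0 higher by limma (0 also at an unadjusted p under 0.05), with a median of −0.43. The count of 26 fell to 16 without WT replicate 2, 15 without WT replicate 3 and 16 without AROM+ replicate 1. At the gene level, lower calls over all genes went from 9054 to 8046, 4951 and 6413 in the same settings. Probes close together can read the same transcript and are not independent.

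**Figure D2:**
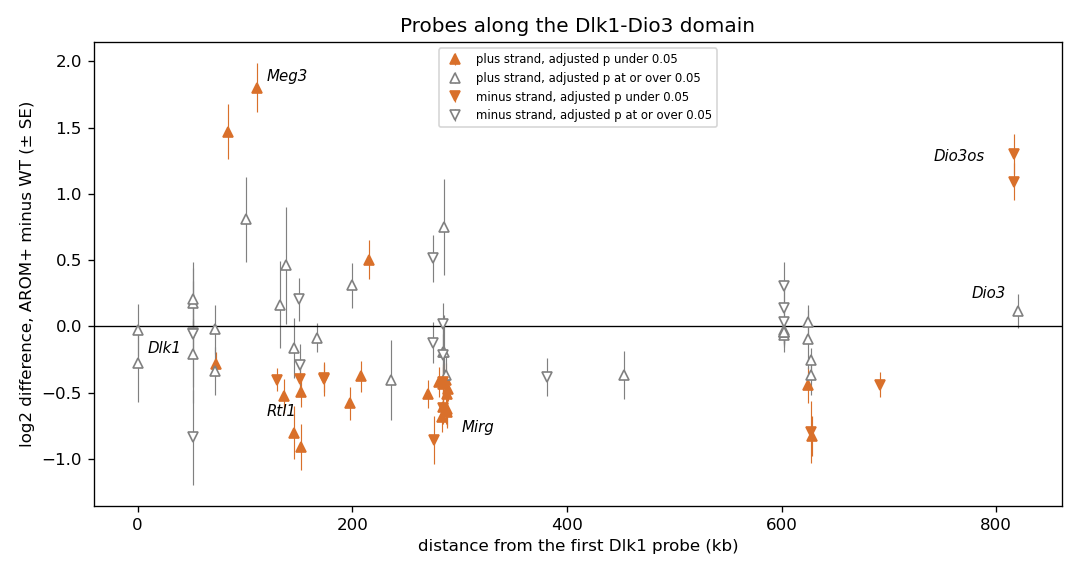
Log2 difference (AROM+ minus WT, ± SE from limma) of each probe above background in the Dlk1-Dio3 domain, against its distance from the first Dlk1 probe in kb. Triangles point up for the plus strand and down for the minus strand, and filled symbols have an adjusted p under 0.05; the highest filled symbols are Meg3 and Dio3os probes, and most filled symbols lie below 0.

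At the H19-Igf2 domain of distal chromosome 7 neither gene was called. H19 is a noncoding RNA of the maternal copy, and Igf2 encodes a foetal growth factor from the paternal copy. The brightest H19 probe (chr7:149761492-149761551, coordinates here and below are NCBI37/mm9) read −1.69, −1.45 and −1.73 in WT and −1.49, −1.11 and −0.87 in AROM+. Only AROM+ replicate 1 fell within the WT range. The difference was 0.47 ± 0.17 (adjusted p = 0.063), and without AROM+ replicate 1 it was 0.63 and called, while without AROM+ replicate 3 it was 0.32. Over the 7 H19 probes the differences ran from −0.32 to 0.55, and the probe at 0.55 ± 0.18 passed the threshold over probes (0.0424). Igf2 (chr7:149839661-149839720) read −2.29, −2.15 and −2.88 in WT and −3.28, −2.94 and −2.45 in AROM+. The groups overlap, and the difference was −0.45 ± 0.27 (adjusted p = 0.201), or −0.25 without AROM+ replicate 1.

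Igf2r, the receptor that takes up IGF2 for degradation and sorts lysosomal enzymes, rose in AROM+ testes. It is expressed from the maternal copy in mice. Its only probe (chr17:12875253-12875263 as the files give it) read −0.48, −0.47 and −0.42 in WT and 0.08, 0.02 and 0.33 in AROM+. Every AROM+ array was above every WT array, and the difference was 0.60 ± 0.11 (1.51-fold, adjusted p = 0.00739). Air, the antisense RNA that silences Igf2r on the paternal copy, has no probe under that symbol. The array names it Airn, with 5 probes of which 3 were above background. Of these, 1 fell (−1.02 ± 0.11, adjusted p over probes 0.00322, from −1.77, −1.76 and −1.50 in WT to −2.68, −2.73 and −2.68 in AROM+), and the others gave −0.22 ± 0.13 and −0.16 ± 0.25.

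A list of 16 genes around IGF2 held Igf1, receptors, substrates, binding proteins, RNA-binding proteins, Pappa and Pappa2. Of these, 8 rose (against 14.6% of all genes) and 1 fell (6.25%, against 31.3%). The median was 0.61, against −0.19 for all genes, and the list was not tested as a set. The 6 largest called rises began with Irs1, the insulin receptor substrate, at 2.80 ± 0.14, Igfbp4 at 1.42 ± 0.21 and Igfbp3 at 1.29 ± 0.31. Next came Igf1 at 1.12 ± 0.19, Igfbp6 at 1.01 ± 0.15 and Igfbp2 at 0.94 ± 0.20. Igfbp5 gave 1.04 ± 0.39 and was not called. Igfbp3 was not called without WT replicate 3 (1.19), and the count of 8 was 5 without that array. Over all genes, higher calls went from 4224 to 2759 without it. The gene that fell, Igf2bp3, at −0.72 ± 0.15, is named here after its value was seen.

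In the Kcnq1 domain next to H19 and Igf2, 2 of the 7 imprinted genes studied fell in the limma test (28.6%, against 31.3% of all genes) and none rose (0 also at an unadjusted p under 0.05, against 14.6% of all genes called higher). The maternal copy expresses most of its protein-coding genes, and the paternal copy expresses the antisense RNA Kcnq1ot1, which silences them in cis. Kcnq1 (chr7:150612896-150612955), a potassium channel subunit, read −1.31, −1.26 and −1.10 in WT and −1.63, −1.63 and −2.21 in AROM+. The groups did not overlap, and AROM+ replicate 3 was the lowest. The difference was −0.60 ± 0.17 (adjusted p = 0.0298), and −0.56 ± 0.20 on a second probe that lies almost on the same bases. The call was lost with any WT array left out (−0.65, −0.62 and −0.54 without replicates 1, 2 and 3) and with spike-in scaling (−0.66).

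Phlda2, a gene that restrains placental growth, was well above background on 3 WT arrays and on no AROM+ array. Its measured means were −6.48 in WT and −6.86 in AROM+ (adjusted p = 0.0469). With AROM+ values raised to the dimmest detected probe of their array where they lay below it, the gene was 1.24-fold lower. That figure leaves out the sampling error. The call was lost on leaving out any 1 of the 6 arrays (−0.45 to −0.27) and under most other settings. Cdkn1c, an inhibitor of cell-cycle kinases, read 1.63 to 1.80 in WT and 1.30 to 1.54 in AROM+ and differed by −0.28 ± 0.11 (adjusted p = 0.0648). Slc22a18, a transporter, differed by −0.44 ± 0.17 (0.0765). For both the groups did not overlap, yet neither passed the threshold. Slc22a18 was −0.25 without AROM+ replicate 3, and −0.58 and called without AROM+ replicate 2. Ascl2, a placental transcription factor, gave 0.19 ± 0.11, and Tssc4 gave 0.10 ± 0.10. Kcnq1ot1 gave 0.12 ± 0.27 and −0.13 ± 0.24 on its 2 probes. These lie on the minus strand, while 5 probes named KCNQ1ot1 on the plus strand of the same interval all fell, by 0.44 to 0.68. They are among 13 probes of other names above background in the interval, of which 2 were higher (15.4%, against 14.1% of all probes) and 7 lower (53.8%, against 30.3%). The 2 higher were Cd81, a tetraspanin that is also imprinted, at 0.33 ± 0.11 (adjusted p over probes 0.0458) and 1 of 2 R74862 probes at 0.72 ± 0.15 (0.0108).

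In the Prader-Willi and Angelman domain of central chromosome 7, 3 of the 6 imprinted genes studied fell (limma, against 31.3% of all genes). None of the 6 rose (0 also at an unadjusted limma p under 0.05), where 14.6% of all genes were called higher. Of 50 probes of other names above background in its interval, 2 were higher (4.0%, against 14.1% of all probes) and 8 lower (16.0%, against 30.3%). The paternal copy expresses Snrpn, Ndn, Magel2, Mkrn3 and Peg12, and the maternal copy expresses Ube3a in neurons. Magel2 (chr7:69526370-69526429), which regulates ubiquitin ligases on endosomes, read −3.03, −2.82 and −2.83 in WT and −3.52, −3.54 and −3.56 in AROM+. The AROM+ arrays lay close together and below all WT arrays, with a difference of −0.65 ± 0.09 (adjusted p = 0.00501). Peg12 (chr7:69608407-69608466) is a member of the FRAT family that acts in Wnt signalling. It read 0.74, 0.57 and 0.56 in WT and −0.06, 0.07 and −0.18 in AROM+. It fell by 0.68 ± 0.11 (1.6-fold, adjusted p = 0.0056), and its second probe fell by 0.37 ± 0.12. Both genes were called under all 15 other settings.

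Snrpn (chr7:67132330-67132389), a protein of the spliceosome, read 0.11, −0.18 and 0.02 in WT and −0.07, −0.06 and −0.60 in AROM+. Of the AROM+ arrays, 2 were within the WT range, and the difference was −0.22 ± 0.17 (adjusted p = 0.319). Ube3a, the ubiquitin ligase lost in Angelman syndrome, fell by 0.37 ± 0.12 (adjusted p = 0.0442), but this call was lost on leaving out any array except AROM+ replicate 2 (−0.42 to −0.29). It was also lost with normexp background correction (−0.36), quantile normalization (−0.31), spike-in scaling (−0.42) and the deposited table (−0.34), and with no filter on dim probes. Ndn, a MAGE protein like Magel2, gave 0.32 ± 0.17 (0.168), with AROM+ replicate 1 the highest array, and 0.13 without it. Mkrn3, a RING finger protein known for its part in the timing of puberty, gave −0.19 ± 0.21 (0.474).

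In the Peg3 domain of proximal chromosome 7, Peg3 rose. This paternally expressed zinc finger gene (chr7:6658774-6658833) read −3.51, −3.20 and −3.21 in WT and −2.91, −2.66 and −1.98 in AROM+. The AROM+ arrays were all higher, and replicate 3 stood apart from the others. The difference was 0.79 ± 0.24 (1.73-fold, adjusted p = 0.0345), and 0.52 without AROM+ replicate 3. Leaving out any WT array ended the call (0.69, 0.84 and 0.84 without replicates 1, 2 and 3), as did leaving out AROM+ replicate 2 (0.86) or the filter on dim probes. Zim1, its maternally expressed neighbour, gave −0.35 ± 0.23 (0.248). Usp29, a deubiquitinase gene that shares the Peg3 promoter region, was not well above background on any array and was not tested.

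The Peg10 domain of proximal chromosome 6 held changes in both directions. Sgce, a sarcoglycan transcribed away from Peg10 on the paternal copy, read 0.82 to 1.01 in WT and 1.27 to 1.37 in AROM+ and rose by 0.38 ± 0.09 (adjusted p = 0.0173). That call was lost without WT replicate 3 (0.32) and with spike-in scaling (0.32). Peg10, a retrotransposon-derived gene needed in the placenta, gave 0.68 ± 0.30 on its brightest probe (0.105), with overlapping groups. It was 0.92 and called without AROM+ replicate 1, 0.41 without AROM+ replicate 3 and 0.03 with the mean of its probes. A second Peg10 probe, 5′ of the first, fell by 0.61 ± 0.14 (adjusted p over probes 0.0148), so the probes of this gene differ in sign.

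Asb4 (chr6:5382886-5382945) is a substrate adaptor of a ubiquitin ligase, expressed from the maternal copy. It read 2.03, 1.98 and 2.18 in WT and 1.38, 1.78 and 1.40 in AROM+. It fell by 0.54 ± 0.13 (adjusted p = 0.0179), with no overlap, and by 0.79 ± 0.11 on its second probe. Leaving out WT replicate 1 (−0.56), WT replicate 3 (−0.48) or AROM+ replicate 1 (−0.48) ended the gene-level call, and so did quantile normalization (−0.38). Ppp1r9a, the neuronal scaffold neurabin, gave 0.35 ± 0.12 (0.0552). Its second probe gave 0.31 ± 0.11 and was called (adjusted p over probes 0.0499). The gene was called without AROM+ replicate 1 (0.45), with quantile normalization (0.46) and with the mean of its probes (0.33). Farther along chromosome 6, Mest, a paternally expressed hydrolase, read −2.56 to −2.41 in WT and −2.13 to −2.12 in AROM+ and rose by 0.35 ± 0.08 (adjusted p = 0.0162). Its other probes gave 0.46 ± 0.12, which was called, and −0.04 ± 0.15. The call was lost without WT replicate 1 (0.36), with spike-in scaling (0.30) and with the mean of its probes (0.26). Copg2, a coat protein gene that overlaps Mest on the other strand, gave −0.09 ± 0.17 (0.681).

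**Figure D3:**
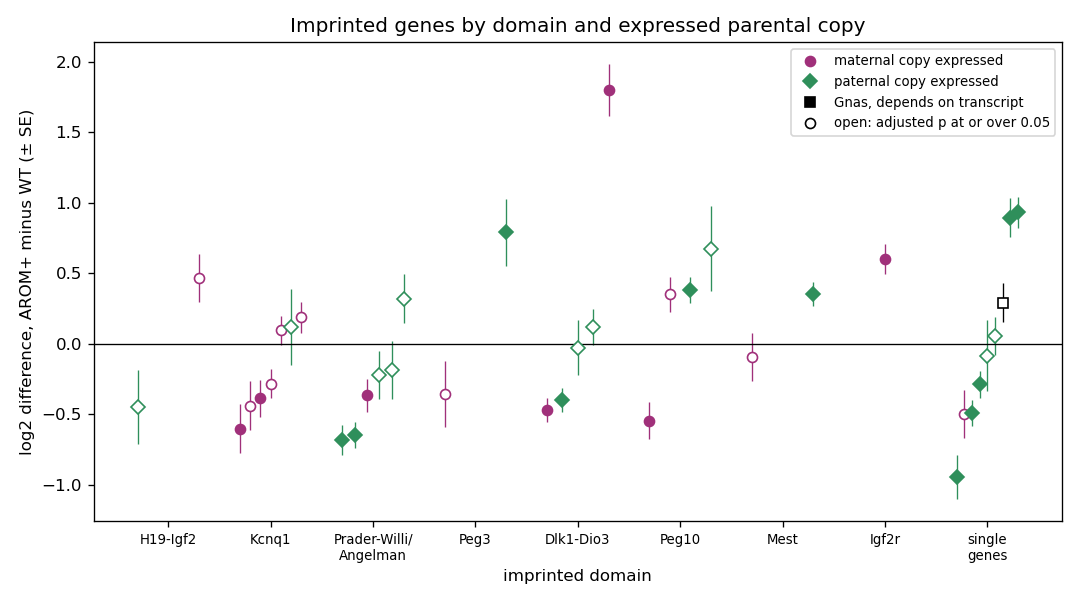
Log2 difference (AROM+ minus WT, ± SE from limma) of the 38 tested imprinted genes, grouped by domain and marked by the parental copy listed as expressed. Filled symbols have an adjusted p under 0.05; the Kcnq1 domain and the Prader-Willi and Angelman domain hold filled symbols below 0 and none above it, and the Dlk1-Dio3 and Peg10 domains hold filled symbols on both sides.

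Of 9 imprinted genes outside these domains, 2 rose (22.2%, against 14.6% of all genes) and 3 fell (33.3%, against 31.3%). Nap1l5 (chr6:58855387-58855446), an intronless relative of nucleosome assembly proteins, read −5.43, −5.49 and −5.61 in WT and −4.35, −4.66 and −4.83 in AROM+. Every AROM+ array was the higher, and the difference was 0.89 ± 0.14 (1.86-fold, adjusted p = 0.0055), or 0.53 with normexp background correction. Impact, an inhibitor of the stress kinase GCN2, read −0.65, −0.49 and −0.79 in WT and 0.32, 0.18 and 0.37 in AROM+ and rose by 0.93 ± 0.11 (1.91-fold, adjusted p = 0.00369). A second Impact probe gave −0.38 ± 0.15 (0.0761), and with the mean of both probes the gene gave 0.28.

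Rasgrf1 (chr9:89911906-89915162), an exchange factor that activates Ras, read −2.44, −2.67 and −2.40 in WT and −3.39, −3.21 and −3.75 in AROM+. The groups did not overlap, and it fell by 0.95 ± 0.16 (1.93-fold, adjusted p = 0.00643). Like H19 and the Dlk1-Dio3 domain, Rasgrf1 belongs to the few loci whose control region is methylated in sperm. Among the tested genes of the loci named here, changes ran in both directions: Meg3 rose, Mirg, Rtl1 and Rasgrf1 fell, and H19, Igf2, Dlk1 and Dio3 were not called.

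Plagl1, a zinc finger regulator of the cell cycle, fell on its brightest probe only. That probe read 3.41, 3.31 and 3.37 in WT and 2.79, 2.99 and 2.85 in AROM+, a fall of 0.49 ± 0.09 (adjusted p = 0.00858). Of the 3 other probes, 2 gave 0.65 ± 0.31 and 0.60 ± 0.31 without a call. On both, AROM+ replicates 1 and 2 were above all WT arrays and replicate 3 was below them. The last gave −0.13 ± 0.12. Taking the mean of the probes turned the sign of the gene (0.16), and quantile normalization gave −0.27 without a call.
Mcts2, a retrogene copy of Mcts1 from which a probe may not separate it, fell by 0.29 ± 0.10 (adjusted p = 0.0452). That call was lost on leaving out any 1 array (−0.33 to −0.23), with normexp background correction (−0.26), quantile normalization (−0.08), spike-in scaling (−0.34) and the deposited table (−0.26), and with no filter on dim probes.

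The remaining genes were not called. Grb10, an adaptor that damps insulin and IGF1 receptor signalling, gave −0.50 ± 0.17 (0.0517) and was called under 4 other settings, at −0.66 without WT replicate 2. Gnas, whose products include the stimulatory G protein alpha subunit, gave 0.29 ± 0.14 on its brightest probe (0.122), −0.43 ± 0.14 on a called probe and −0.19 ± 0.22 on another. With quantile normalization the brightest probe was called (0.52). Gnas transcripts start at several promoters with different parental origin, so its probes need not read the same RNA. Nnat, a small membrane protein, gave −0.08 ± 0.25, and Zrsr1, a splicing factor retrogene, gave 0.06 ± 0.13.

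Probes of the same gene did not always point the same way. Of 18 imprinted genes with 2 or more probes above background, 7 had probes on both sides of 0, or 38.9%, against 30.0% of 8582 genes on the array. No imprinted gene had probes called by limma in opposite directions, which was seen for 3.39% of those genes, and at an unadjusted p under 0.05 only Impact did. The other 20 tested genes, among them Igf2, Igf2r, Rtl1, Sgce, Nap1l5, Magel2, Rasgrf1 and Peg3, have only 1 probe above background. The 7 are Plagl1, Gnas, Peg10, Impact, Mest, Kcnq1ot1 and H19.

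**Figure D4:**
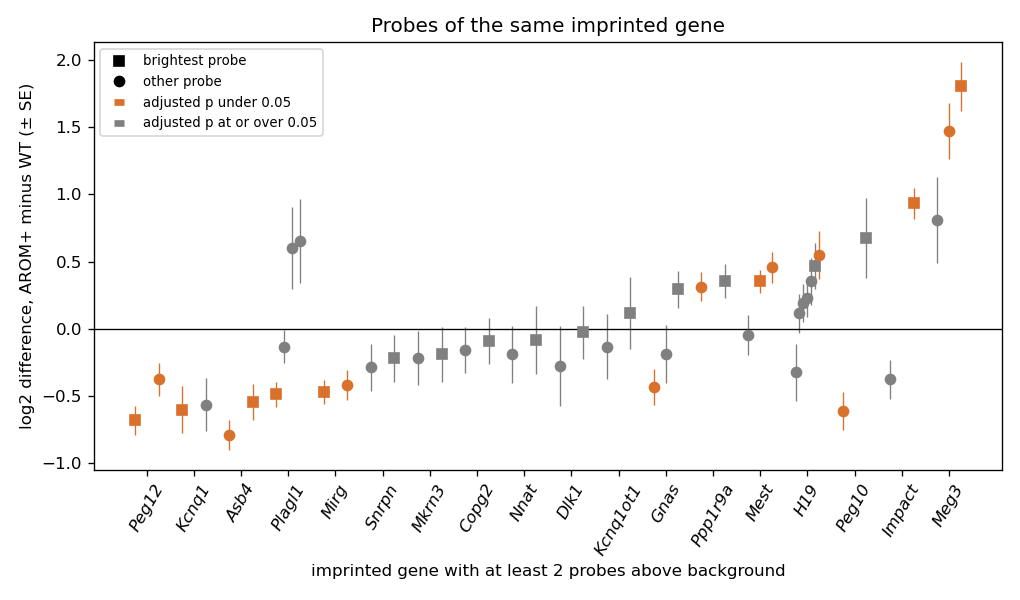
Log2 difference (AROM+ minus WT, ± SE from limma) of every probe above background for the 18 imprinted genes with at least 2 such probes. Squares are the brightest probe of the gene and circles the others, and orange marks an adjusted p under 0.05 over probes; the probes of Meg3, Asb4, Mirg and Peg12 lie on one side of 0, and those of Plagl1, Impact, Peg10 and Gnas on both.

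By the copy listed as expressed, which was not measured in these testes, the genes were split as follows. Of 16 genes listed as maternal, 2 rose (12.5%, against 14.6% of all genes) and 5 fell (31.2%, against 31.3%), with a median of −0.32 against −0.19 for all genes. The 5 include Ube3a, whose maternal expression is stated above for neurons. Of 21 listed as paternal, 5 rose (23.8%) and 6 fell (28.6%), with a median of −0.03. The difference between these groups was not tested.

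Imprinted genes outside the 41 also changed in both directions. Of 40 others listed, 32 were tested, 9 rose (28.1%, against 14.6% of all genes) and 6 fell (18.8%, against 31.3%), and the median was −0.005. The largest called rise was Ampd3, an AMP deaminase, at 3.16 ± 0.24 (from −6.26, −6.13 and −6.21 in WT to −2.47, −3.18 and −3.47 in AROM+). Its WT values lay near the dimmest detected probes of those arrays (−7.39 to −6.70). With normexp background correction the rise was 2.00. The next called rises were Tnfrsf23, a decoy receptor, at 0.89 ± 0.11, and the matrix proteoglycan Dcn at 0.81 ± 0.22. Dcn is also 1 of the fibroblast and matrix markers, and 4 arrays each decide its call, which ended on leaving out WT replicate 1 (0.76) or 3 (0.69), or AROM+ replicate 1 (0.77) or 3 (0.66). The largest falls were Zim3 at −0.74 ± 0.12, Atp10a at −0.72 ± 0.11 and Zdbf2 at −0.62 ± 0.10. The count of 9 was 4 without WT replicate 1, 5 without WT replicate 3 and 5 without AROM+ replicate 1. Over all genes, higher calls went from 4224 to 2787, 2759 and 3796 in the same settings.

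Genes listed as regulators of imprinting, among them those that set, keep or erase DNA methylation marks, were tested as a further list. Of 29 tested, 3 rose (10.3%, against 14.6% of all genes) and 7 fell (24.1%, against 31.3%), with a median of −0.06. Dnmt3a, the methyltransferase that sets new marks in germ cells, rose by 1.04 ± 0.14 (adjusted p = 0.00462), while its cofactor Dnmt3l fell by 0.62 ± 0.14 (0.0129). Among enzymes that oxidise or remove methylcytosine, Tet2 rose by 0.93 ± 0.18 and Tdg by 0.56 ± 0.13, and Tet3 fell by 0.56 ± 0.10. Averaged over their probes, neither Tdg (0.09) nor Tet3 (−0.26) was called. Zfp57, the zinc finger protein that guards imprints in the embryo, fell by 0.40 ± 0.10 (0.0172). That call was lost without WT replicate 1 (−0.37) or WT replicate 3 (−0.38). It was also lost with spike-in scaling (−0.46) and with the replicate number added to the fit. Dnmt1, the maintenance methyltransferase, gave 0.07 ± 0.10. The count of 7 was 2 without WT replicate 1, 2 without WT replicate 3 and 4 without AROM+ replicate 1. Over all genes, lower calls went from 9054 to 5406, 4951 and 6413 in the same settings. DNA methylation was not measured.

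The letters bound by ZFP57 at imprinted control regions are shown in promoters of the called genes Meg3, Nap1l5, Mest and Plagl1. The windows are from RefSeq (GRCm38.p6), run from 250 bases before a start site to the start, with 50 more in noncoding Meg3, and capitals mark each match to TGCCGC on either strand.
Meg3, chr12:109540746-109541045, plus strand: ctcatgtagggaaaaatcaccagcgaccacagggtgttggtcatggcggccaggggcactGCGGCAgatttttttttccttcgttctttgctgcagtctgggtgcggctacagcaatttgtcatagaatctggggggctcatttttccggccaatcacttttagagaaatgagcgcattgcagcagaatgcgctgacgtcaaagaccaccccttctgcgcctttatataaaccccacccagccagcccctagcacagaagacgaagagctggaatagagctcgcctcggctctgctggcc
Nap1l5, chr6:58907127-58907376, minus strand: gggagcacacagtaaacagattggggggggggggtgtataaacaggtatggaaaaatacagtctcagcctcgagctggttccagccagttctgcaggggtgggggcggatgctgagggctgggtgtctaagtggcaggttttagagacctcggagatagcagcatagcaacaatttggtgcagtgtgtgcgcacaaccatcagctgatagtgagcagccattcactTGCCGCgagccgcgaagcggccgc
Mest, chr6:30737800-30738049, plus strand: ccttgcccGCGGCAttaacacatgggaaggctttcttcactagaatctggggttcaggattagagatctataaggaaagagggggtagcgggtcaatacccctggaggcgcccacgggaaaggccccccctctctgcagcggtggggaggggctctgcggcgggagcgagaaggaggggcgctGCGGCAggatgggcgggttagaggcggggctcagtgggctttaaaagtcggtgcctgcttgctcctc
Plagl1, chr10:13090582-13090831, plus strand: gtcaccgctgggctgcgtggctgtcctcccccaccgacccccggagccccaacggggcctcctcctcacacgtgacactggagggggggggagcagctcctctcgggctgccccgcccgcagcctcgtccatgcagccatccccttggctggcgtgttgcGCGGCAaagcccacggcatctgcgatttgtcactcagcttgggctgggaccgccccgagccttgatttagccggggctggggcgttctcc

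RefSeq promoters were matched for 31 of the 38 tested genes, in 46 windows of 250 bases before to 50 after the start. TGCCGC was in 26.1% of these windows and in 11.6% of all 32851 windows. The 12 windows with a match belong to 11 genes, and windows of a gene can overlap, as 2 of Mest do. The comparison was not matched for base content. The 11 genes with a match include 3 that rose (Meg3, Mest and Nap1l5), 2 that fell (Mcts2 and Plagl1) and 6 that were not called. The YY1 letters GCCATNTT were in 4.35% of the windows and 6.05% of all, and the palindromic oestrogen response element, GGTCA and TGACC with 3 bases between them, was in 0 of the 46 windows and 0.07% of all. A match is a string of letters and not a measured site, and the words were not tested against the expression values.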

How the data were processed

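The files were deposited by the authors as Agilent Feature Extraction scanner output (version 10.7.3.1 per the file headers, 10.10 per the submitters' processing notes), whose processed signal is an intensity already corrected for background. The authors also deposited a table of log2 values, whose columns follow log2 of that intensity minus a constant (slope 1.00, r of 0.9998 to 0.9999), with medians of −3.12 to −3.02; between 5.87% and 6.07% of spots lie over 0.01 from that line, by at most 5.66. From the intensities, log2 minus each array's 75th percentile (3696 to 5431) was computed, control spots (3671 of 62976) and outlier-flagged spots (123 to 192) were left out, and spots of one probe were averaged. Between 76.6% and 80.6% of spots were well above background. Probes were kept (42638 of 55681) where either group had all 3 of its arrays well above background. The brightest probe stood for a gene name. The test was limma 3.58.1 under R 4.3.3 (Benjamini-Hochberg over 28917 genes, threshold 0.05), checked on simulated data. Probe-level p-values are adjusted over probes.

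The labels name single testes, and p-values measure the spread between these samples. The imprinted genes and all lists were chosen with earlier results of these data known. Array values are given for called genes without overlap and at least 0.5 in size, for H19, Igf2, Igf2r, Dlk1, Peg3 and Snrpn, and, chosen after their values were seen, for Mirg, Rtl1, Cdkn1c, Sgce, Mest, Plagl1, Airn, Dio3os and Ampd3; the 6 largest called changes are named in each other list. Arrays correlated at 0.994 to 0.996 within WT, 0.988 to 0.992 within AROM+ and 0.961 to 0.983 between them. Coordinates are those of the files, and no annotation of that build was used for exons or introns. RefSeq sequences are of GRCm38.p6. The sequence and value of 1 probe are not reported here.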

Additional observations from a re-analysis of the deposited data

How the results depend on the processing

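Of the 18 called imprinted genes, 8 (Igf2r, Impact, Magel2, Meg3, Mirg, Nap1l5, Peg12 and Rasgrf1) stayed called in the same direction under all 15 other settings, and 10 lost the call in at least 1. Of those not called, 6 were called in at least 1. The 11 called lower became 5 with quantile normalization, 6 with spike-in scaling and 7 with the replicate block, and 6 to 10 on leaving out 1 array; the 7 called higher became 5 to 10. Among other imprinted genes, the 9 higher became 5 with spike-in scaling and 4 to 8 on leaving out 1 array. The 7 lower regulators became 4 with quantile normalization, 2 with spike-in scaling, 2 with the replicate block and 2 to 7 on leaving out 1 array. The 8 higher genes of the list around IGF2 became 5 to 8. Same-numbered deviations correlated at 0.049, −0.167 and 0.05. These values show no pairing of the samples by number but, with 3 arrays per group, cannot exclude one. No call was reversed except for Plagl1, at 0.158 with its probes averaged. Genes not called changed sign: Kcnq1ot1 (−0.00606) and Gnas (−0.111) with probes averaged, Copg2 (0.0643) with quantile normalization and Zrsr1 (−8.05e-05) with spike-in scaling. On leaving out 1 array, Dlk1 ran from −0.147 to 0.192, Copg2 from −0.223 to 0.0509, Kcnq1ot1 from −0.139 to 0.316, Mkrn3 from −0.403 to 0.00426, Nnat from −0.289 to 0.135 and Zrsr1 from −0.0678 to 0.122. The member median ran from −0.18 to 0.04, above 0 only without AROM+ replicate 1. Over all genes the median was −0.24 (spike-in scaling) to −0.09 (quantile normalization), and called genes of that whole table fell from 9054 lower to 6185 with quantile normalization. The lower calls were 6472 with spike-in scaling, 7050 with the replicate block and 4951 to 8046 on leaving out 1 array. The 4224 higher calls became 2763, 3556 and 2759 to 3950 in those settings. The causes were not tested. The probe counts of the Dlk1-Dio3 domain were recomputed under settings chosen after seeing the data: the 26 lower ran from 15 to 27. Signal near background limits Phlda2 and Zim1, which the filter requiring all 6 arrays left out, and Usp29.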
